A study of Mus musculus with 10 samples.

Results

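The keratin genes of the mouse were followed through the reprogramming of fibroblasts toward pluripotency. Members were all genes whose symbol is Krt plus a number, with or without a final letter, and which have at least 1 protein-coding transcript. The rule found 51 of the 45706 genes in the deposited tables, 28 of type I and 23 of type II. No expression value entered the rule, but the family as such was chosen by an earlier look at these data, in which the log2 fold changes of Krt6a stood out in comparisons of day 9 with day 6 and of ESC with day 9. Krt6a at day 9 is therefore described without a p-value in every comparison.

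RNA was measured in 10 libraries from 5 stages, with 2 libraries each, and all 10 libraries carry the same batch label. The uninduced cells were mouse embryonic fibroblasts (MEF) of strain C57BL/6 x 129, kept in fibroblast medium and not given doxycycline. They carry the polycistronic reprogramming cassette OKSM (Oct4, Klf4, Sox2 and Myc) in Col1a1, and the transactivator M2rtTA in Rosa26. Day 3 (D3), day 6 (D6) and day 9 (D9) cells were of that genotype and strain and were grown in embryonic stem cell medium with 1 µg/ml doxycycline and 50 µg/ml ascorbic acid. The day 3 cultures were unsorted. At days 6 and 9, SSEA1-positive cells were isolated (SSEA1 is a sugar on the surface of early pluripotent cells), so time and selection cannot be told apart between day 3 and day 6. The pluripotent reference (ESC) was the V6.5 line of the same strain background, without the cassette, unsorted and grown on irradiated feeder cells with serum and LIF. The MEF cells were also unsorted, and the labels do not say how many embryos or cultures stand behind the 2 libraries of a stage. The p-values then measure only the spread between these libraries, which may be technical.

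Keratins are the intermediate filament proteins of epithelial cells. A filament is built from pairs of 1 acidic type I chain and 1 basic to neutral type II chain, so each epithelium makes keratins of both types. Single-layered (simple) epithelia use mainly Krt8 with Krt18 and Krt19, and Krt8 with Krt18 are the first keratins made in the mouse embryo. Stratified (squamous) epithelia use Krt5 with Krt14 in the basal layer, other pairs in the upper layers, and Krt6a, Krt6b, Krt16 and Krt17 in hair follicles and injured skin, while hair keratins build the hair shaft and its sheaths. The family was read here in those classes: 6 simple keratins, 20 squamous keratins, 23 hair keratins, and 2 unclassed genes, Krt42 and Krt222.

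Libraries held between 29585663 and 38274811 estimated reads, and keratins took from 0.00207% to 0.0283% of a library. Fibroblast markers (all 9 listed genes found) summed to 48469 and 47042 CPM (counts scaled to library size by TMM) in MEF, 3283 and 3252 at day 3, between 46.9 and 77.2 at days 6 and 9, and 4187 and 4334 in ESC, which were grown on feeder cells. Pluripotency markers summed to 2803 and 2853 CPM in ESC, 203 and 203 at day 9 and under 5 in MEF and at day 3. The 7 trophectoderm markers summed to 7.61 and 7.47 CPM in MEF, 32.0 and 32.9 at day 3, 74.3 and 74.3 at day 6, 79.6 and 81.3 at day 9 and 61.1 and 64.9 for ESC. At day 9, 4 of them (Gata3, Elf5, Tfap2c and Tead4) reached 1 CPM and 3 (Cdx2, Eomes and Hand1) did not, and the part of such cells in the keratin values was not tested. The 6 keratinocyte markers summed to 62.1 and 63.2 CPM at day 9, nearly all of it Col17a1 (58.8 and 59.7 CPM). Krt14 was the other one above 1 CPM, while Trp63, Krt5, Dsg3 and Dsc3 were under 1 CPM. Xist, the RNA of the inactive X chromosome, was at 0.74 and 0.79 CPM in MEF, between 930 and 1317 CPM from day 3 to day 9, and 11.3 and 9.00 CPM in ESC. Ddx3y, on the Y chromosome, was at 90.6 and 86.4 CPM in MEF, under 0.18 CPM from day 3 to day 9, and 26.1 and 26.8 CPM in ESC. With Ddx3y read and almost no Xist in MEF, and the reverse from day 3 to day 9, MEF and induced cells differed in sex. That difference cannot be told apart from the stage in comparisons of induced cells with MEF, nor can any such difference from ESC. A rise or fall against MEF is therefore a difference between libraries and was not followed in the same cells. These are bulk samples, in which fewer cells of a type and less RNA per cell cannot be told apart.

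Of the 51 keratin genes, 20 passed the low-count filter and were tested, 31 did not, and 9 of those 31 had no read in any library. The 31 untested genes reached at most 19 reads in a library and at most 0.11 TPM (a level per transcript length). Hair keratins were close to silent: the 23 genes together gave 262 reads over the 10 libraries and no single gene gave more than 21 in any of them. Only 2 hair keratins were tested, against 5 of 6 simple and 12 of 20 squamous keratins and Krt42. At least 10 reads in both libraries were found for 8 members in MEF, 9 at day 3, 9 at day 6, 15 at day 9 and 15 for ESC. Just 5 members, Krt8, Krt18, Krt19, Krt7 and Krt10, reached that level at every stage. In contrast, Krt84 passed only through day 3, Krt5 and Krt77 only through day 9, and Krt42, Krt79, Krt12 and Krt71 only through ESC, so each of these had to differ somewhere.

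Simple keratin RNA was lower at day 3 than in MEF and highest at day 9. Their summed level was 22.5 and 21.7 TPM in MEF, 5.60 and 6.92 at day 3, 8.98 and 9.17 at day 6, 65.1 and 68.5 at day 9, and 11.4 and 12.8 in ESC. Both day 9 libraries stood above all others and both day 3 libraries below all others. The group means were 22.1 ± 0.563, 6.26 ± 0.934, 9.07 ± 0.129, 66.8 ± 2.34 and 12.1 ± 0.986 TPM (SD, n = 2), so the steps from stage to stage exceeded the spread between libraries. With 2 libraries against 2, an exact permutation test cannot go below p = 0.333, and no test was made of these sums. Squamous keratins summed to 2.58 ± 0.166 TPM in MEF, 3.32 ± 1.44 at day 3, 6.99 ± 4.01 at day 6, 20.1 ± 0.871 at day 9 and, for ESC, 9.09 ± 1.84.

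The values at day 3 and day 6 lean on a few reads. Krt13 has a retained-intron transcript of 207 nt, on which 6 reads in the second day 6 library gave 7.17 TPM. Counting protein-coding transcripts only, a choice made after seeing the data, the squamous sum was 2.18 TPM in MEF, 1.61 at day 3, 1.88 at day 6, 13.6 at day 9 and 7.35 for ESC, and the simple sum 12.4, 3.92, 7.61, 59.2 and 9.92 TPM. On that count the squamous sum of the first 3 stages lay between 1.59 and 2.21 TPM in single libraries. Day 9 was again the highest stage for simple keratins. The squamous sum was highest at day 9 too, but it holds Krt6a, whose day 9 level led to the choice of the family. Krt6a came to 5.86 and 5.58 TPM at day 9 and to 0 and 0.0068 TPM in ESC. The squamous order of day 9 and ESC is therefore not read as a result.

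**Figure D1:**
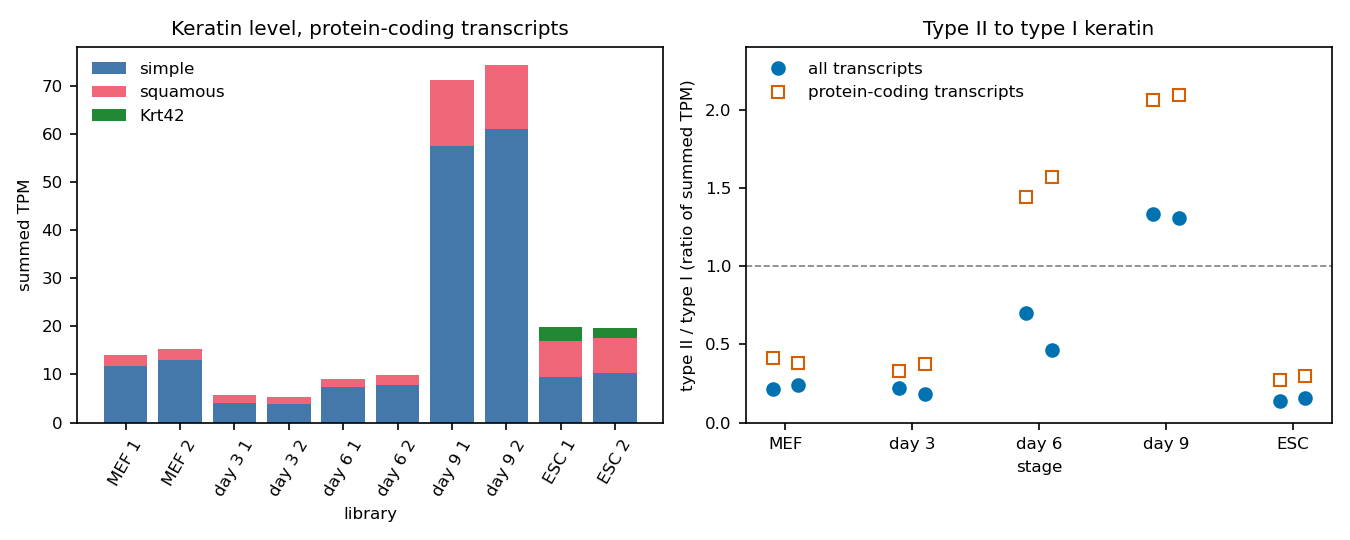
Left, summed TPM of the protein-coding transcripts of simple keratins, squamous keratins and Krt42 in each of the 10 libraries (bars stacked from 0). Right, summed type II TPM over summed type I TPM in each library, for all transcripts (filled circles) and protein-coding transcripts only (open squares), with a dashed line at equal amounts. The simple keratins of the day 9 libraries come to 57.5 and 61.0 TPM. On the right both day 9 libraries lie above the line with either count and day 6 only with protein-coding transcripts, while MEF, day 3 and ESC libraries lie below it.

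Krt8 and Krt18, the type II and type I partners of simple epithelia, lie next to each other on chromosome 15 (GRCm38). Krt8 spans 101996698 to 102004482 on the minus strand and Krt18, the only type I gene outside chromosome 11, spans 102028180 to 102032027 on the plus strand. The gap of 23.7 kb between them holds no other keratin gene. The 250 bases before the RefSeq start of each (GRCm38.p6) are printed because these are the 2 most strongly read partners at day 9, and that of Krt42, the keratin read mainly in ESC, for contrast. Capitals mark matches on either strand to CCNCNCCC, the core of sites bound by KLF4 and its relatives, since KLF4 is 1 of the factors that were induced. Each is printed 5′ to 3′ on the gene's own strand, from chr15:102004343-102004592 (minus) for Krt8, chr15:102027966-102028215 (plus) for Krt18 and chr11:100269952-100270201 (minus) for Krt42.
Krt8: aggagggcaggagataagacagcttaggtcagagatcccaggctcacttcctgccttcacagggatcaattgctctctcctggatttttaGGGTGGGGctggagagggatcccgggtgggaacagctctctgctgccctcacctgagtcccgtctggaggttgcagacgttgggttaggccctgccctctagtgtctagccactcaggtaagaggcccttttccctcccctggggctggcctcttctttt
Krt18: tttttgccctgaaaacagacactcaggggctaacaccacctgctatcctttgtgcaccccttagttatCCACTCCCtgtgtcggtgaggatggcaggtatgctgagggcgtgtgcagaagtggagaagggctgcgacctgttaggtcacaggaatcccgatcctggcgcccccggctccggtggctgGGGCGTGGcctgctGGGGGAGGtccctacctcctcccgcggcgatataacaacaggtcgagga
Krt42: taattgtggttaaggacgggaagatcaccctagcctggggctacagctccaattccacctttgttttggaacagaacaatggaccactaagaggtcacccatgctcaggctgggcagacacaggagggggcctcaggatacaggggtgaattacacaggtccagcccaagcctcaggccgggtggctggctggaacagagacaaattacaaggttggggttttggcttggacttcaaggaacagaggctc

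The Krt8 window held 1 match, the Krt18 window 3 and the Krt42 window 0. RefSeq and GENCODE place the starts differently, so the Krt8 and Krt18 windows reach into the GENCODE gene spans given above. RefSeq windows were found for 35 of the 51 members (36 windows) and for 14 of the 20 tested ones. The tested members without a window here were Krt6a, Krt6b, Krt16, Krt17, Krt19 and Krt80. The KLF motif was in 38.9% of the keratin windows and in 45.9% of all 32851 windows of that length. The AP-1 motif TGANTCA was in 5.6% against 6.7% and the TFAP2 motif GCCNNNGGC in 11.1% against 13.7%, with both strands searched. TATAAA, the TATA box, was in 47.2% of keratin windows against 12.4% of all windows, and it was in none of the 3 windows printed. Matches to different motifs may overlap.

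Krt8 was at 5.61 and 6.43 CPM in MEF, 3.23 and 3.19 at day 3, 17.1 and 19.3 at day 6, 144 and 154 at day 9, and 10.9 and 11.4 in ESC. No 2 stages overlapped, and day 9 stood far above the rest. From day 3 to day 6 its log2 fold change was 2.50 ± 0.10 (SE, here and after each fold change; edgeR quasi-likelihood test, Benjamini-Hochberg adjusted p = 3.4e-11), and from day 6 to day 9 it was 3.03 ± 0.06 (edgeR, adjusted p = 4.3e-13). It was then lower in ESC than at day 9 (log2 fold change -3.74 ± 0.07; edgeR, adjusted p = 3.1e-15). The first step, from MEF to day 3, was -0.91 ± 0.12 (edgeR, adjusted p = 1.3e-05) and stayed short of the minimum of 1 used for a call. It reached that minimum without MEF replicate 1 (-1.0) and in DESeq2 (-1.04). Against MEF, day 9 was higher by 4.62 ± 0.07 (edgeR, adjusted p = 4.8e-16). Of the 50-base stretches of Krt8 transcripts, 26.9% also occur in the pseudogene Krt8-ps, and reads from these stretches could belong to either gene.

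Krt18 was lower at day 3 than in MEF and was first called higher at day 9. Its levels were 7.61 and 8.81 CPM in MEF, 2.88 and 2.66 at day 3, 3.47 and 3.30 at day 6, 32.4 and 36.3 at day 9, and 9.63 and 11.6 in ESC. The log2 fold change at day 3 against MEF was -1.57 ± 0.14 (edgeR, adjusted p = 1.3e-07). Between day 3 and day 6, where Krt8 rose, the change of Krt18 was 0.29 ± 0.16 (edgeR, adjusted p = 0.14) and was not called; the difference between the genes at that step was not tested. From day 6 to day 9 it rose by 3.34 ± 0.11 (edgeR, adjusted p = 5.2e-11), and its log2 fold change in ESC against day 9 was -1.70 ± 0.10 (edgeR, adjusted p = 1.2e-09).

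The ratio of the 2 partners per length moved with this. Krt8 TPM over Krt18 TPM was 0.546 and 0.540 in MEF, 0.830 and 0.888 at day 3, 3.65 and 4.33 at day 6, 3.29 and 3.13 at day 9, and 0.837 and 0.729 in ESC. Krt18 thus exceeded Krt8 in MEF, day 3 and ESC libraries and was exceeded by it in all 4 sorted libraries. Over the whole family, type II over type I was 0.227 ± 0.0152 in MEF, 0.202 ± 0.0257 at day 3, 0.582 ± 0.169 at day 6, 1.32 ± 0.0151 at day 9 and, for ESC, 0.149 ± 0.0128 (SD, n = 2). With protein-coding transcripts only, day 6 came to 1.50 and day 9 to 2.08, against 0.396 in MEF, 0.350 at day 3 and 0.283 in ESC, so whether type II RNA exceeds type I RNA at day 6 depends on that choice. Krt8 alone made up 84.1% ± 0.648 of type II TPM at day 9 and 47.9% ± 0.132 of all keratin TPM.

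Krt19, a small type I keratin without the usual tail that also pairs with Krt8, was the main keratin of the MEF libraries. It lies on chromosome 11 at 100140810 to 100148665 and made up 73.5% ± 1.31 of type I TPM in MEF (SD, n = 2). That share rests in part on transcripts that are not protein-coding. Its protein-coding transcript alone came to 5.60 ± 0.591 TPM in MEF, against 14.9 ± 0.895 TPM over all its transcripts and 3.26 ± 0.289 TPM for Krt18. Levels were 27.4 and 28.02 CPM in MEF, 7.40 and 7.48 at day 3, 3.73 and 3.45 at day 6, 19.8 and 19.8 at day 9, and 3.98 and 4.51 in ESC. It was thus highest in MEF, unlike Krt8 and Krt18, and its log2 fold change at day 9 against MEF was -0.49 ± 0.07, which was under the minimum for a call. It fell at day 3 by 1.90 ± 0.08 on the log2 scale (edgeR, adjusted p = 2.8e-11) and fell again by 1.05 ± 0.10 at day 6 (edgeR, adjusted p = 4.8e-07). The second fall lost its call without D6 replicate 2 (-0.99) and with library-size scaling (-0.98). At day 9 it rose by 2.46 ± 0.09 (edgeR, adjusted p = 9.1e-11), and its log2 fold change in ESC against day 9 was -2.22 ± 0.09 (edgeR, adjusted p = 1.5e-11).

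Krt7, the type II keratin of ducts and mesothelium, lies on chromosome 15 at 101411043 to 101430313. It measured 7.24 and 7.50 CPM in MEF, 0.73 and 1.01 at day 3, 0.82 and 0.76 at day 6, 4.37 and 4.57 at day 9, and 3.03 and 2.91 in ESC. On the log2 scale it fell by 3.09 ± 0.20 at day 3 (edgeR, adjusted p = 4.1e-09), did not pass the test at day 6 (-0.13 ± 0.24) and rose by 2.50 ± 0.20 at day 9 (edgeR, adjusted p = 3.2e-07). Its log2 fold changes at day 9 against MEF and in ESC against day 9 were -0.72 ± 0.16 and -0.59 ± 0.17, both under the minimum for a call.

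Krt20, a type I keratin of the gut lining, was below 1 TPM throughout and was chosen after its values were seen. Its 52 and 37 reads in MEF gave way to 0 and 0 at day 3, then 18 and 12 at day 6, 50 and 68 at day 9 and 99 and 98 in ESC. Day 3 was at least 18.0-fold lower than MEF, taking 3 reads per library as the limit that a count of 0 allows. A list of 5 mesothelial markers stood in the same order as Krt19 over the first 4 stages, while Krt7 overlapped between day 3 and day 6. That order did not hold in ESC, where the marker sums were slightly above day 9. Krt19 was far lower there, at 3.98 and 4.51 CPM against 19.8 and 19.8 CPM at day 9. The marker sums were 44.6 and 46.7 CPM in MEF, 8.32 and 6.41 at day 3, 2.47 and 3.12 at day 6, 18.7 and 18.8 at day 9 and 19.5 and 19.6 in ESC. All 5 markers had a mean above 1 CPM in MEF, while Upk3b was below 1 CPM at every other stage. Also below it were Lrrn4 at day 3, Msln, Wt1 and Upk1b at day 6, Wt1 at day 9 and Upk1b in ESC. The part of such cells in the keratin values was not tested.

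**Figure D2:**
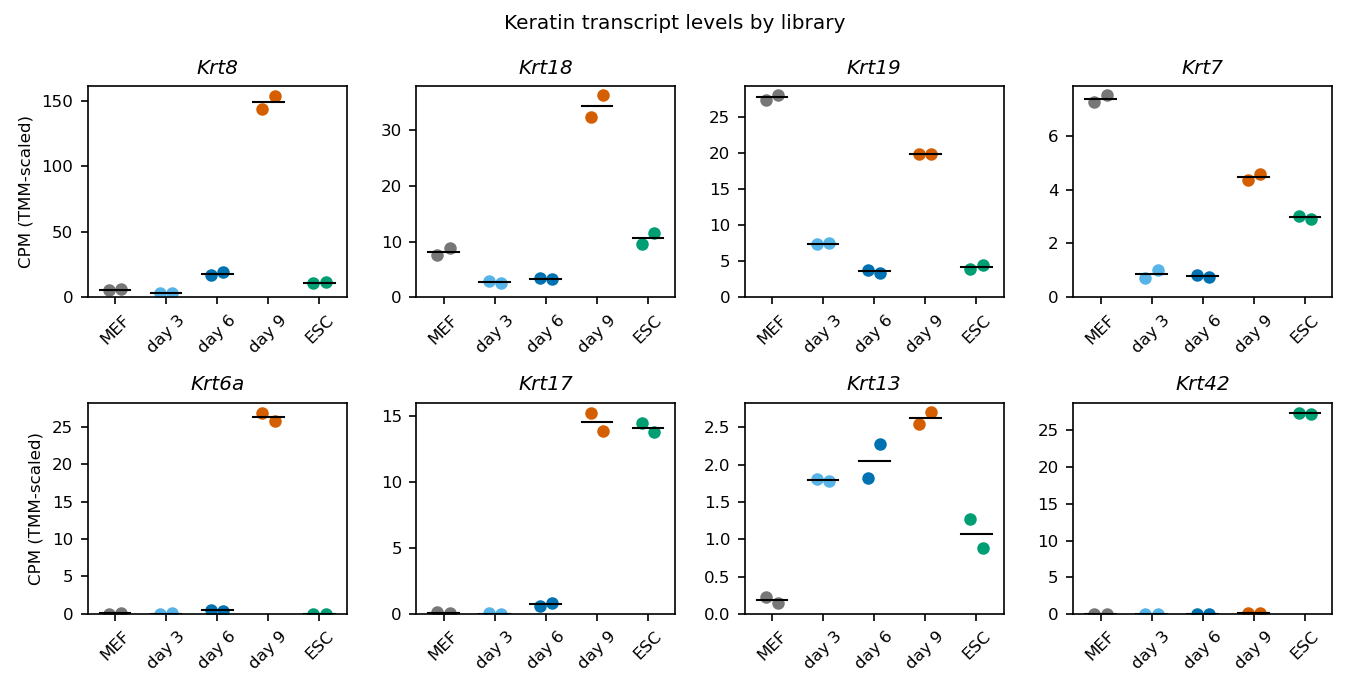
TMM-scaled CPM of the 8 keratin genes that reached a mean of 1 TPM at a stage, with 1 point per library and a line at the mean of the 2 libraries (linear axes, each panel on its own scale). Krt8, Krt18 and Krt6a peak at day 9, Krt19 and Krt7 are highest in MEF and rise again at day 9, Krt17 is high at both day 9 and ESC, and Krt42 is read almost only in ESC.

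**Figure D3:**
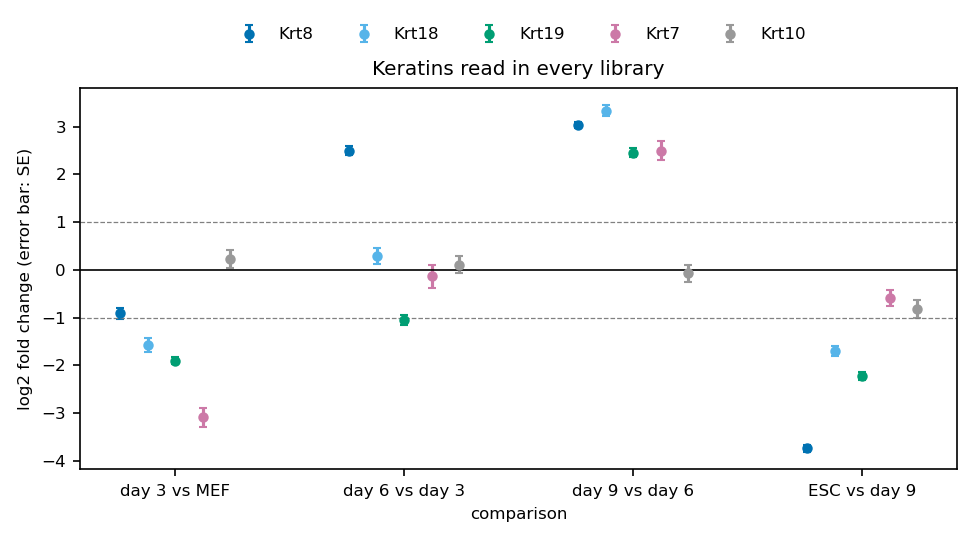
Log2 fold change with its SE for each stage step in the 5 keratins with at least 10 reads in every library; dashed lines mark the minimum of 1 for a call. All 4 simple keratins lie above the upper line from day 6 to day 9, and Krt10 stays between the lines at every step.

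Among squamous keratins, Krt6a (type II, chromosome 15, 101689910 to 101694307) was read almost only at day 9. It had 1 and 3 reads in MEF, 0 and 2 at day 3, 18 and 13 at day 6, 836 and 1022 at day 9, and 0 and 1 in ESC, which made 26.9 and 25.8 CPM at day 9. The log2 fold change from day 6 to day 9 was 5.82 ± 0.22. Day 9 exceeded ESC 1876-fold in reads per library size, with an exact 95% interval from 336 to 74150 that covers counting error only. Against MEF, day 9 was 393-fold higher (exact 95% interval 153 to 1445). Day 9 was the only stage at which both libraries exceeded 20 reads.

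Krt6b, its near copy 9.6 kb away, was read at a lower level. Reads were 0 and 1 in MEF, 15 and 28 at day 3, 10 and 4 at day 6, 57 and 96 at day 9 and 0 and 0 in ESC. It was already present at day 3, where it exceeded MEF 36.3-fold (exact 95% interval 6.17 to 1466; edgeR, adjusted p = 0.00033). Its fall from day 3 to day 6 (log2 fold change -1.54 ± 0.57; edgeR, adjusted p = 0.034) lost its call without D3 replicate 2 or D6 replicate 2, with adjusted p of 0.26 and 0.21 in edgeR. Krt6b then rose at day 9 by 3.33 ± 0.52 on the log2 scale and was at least 25.3-fold lower in ESC. Both values are given without a p-value, since 44.5% of the 50-base stretches of Krt6b also occur in Krt6a. Of the 50-base stretches of Krt6a, 43.6% also occur in Krt6b, so the split of reads between them is uncertain. Summed, the pair rose at day 3 by 2.88 ± 0.60 and at day 9 by 5.40 ± 0.23, but not at day 6 (0.08 ± 0.36; edgeR, adjusted p = 0.89), although Krt6a alone was called there (3.87 ± 0.65; edgeR, adjusted p = 0.00015).

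Krt17, a type I partner of Krt6a and Krt6b, was high both at day 9 and in ESC. Lying at 100256217 to 100261029 on chromosome 11, it had 0.11 and 0.06 CPM in MEF, 0.05 and 0 at day 3, 0.59 and 0.85 at day 6, 15.2 and 13.9 at day 9, and 14.4 and 13.8 in ESC. Day 6 exceeded day 3 25.4-fold in reads per library size (exact 95% interval 6.66 to 216; edgeR, adjusted p = 9.6e-06). The rise to day 9 was 4.34 ± 0.19 on the log2 scale (edgeR, adjusted p = 6.4e-10). Day 9 and ESC overlapped, with a log2 fold change of -0.04 ± 0.13 that was not called.

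Krt16, the other type I partner of the Krt6 genes, was read at a far lower level and was named for that partnership. It had 1 read in total over the 6 libraries before day 9, then 12 and 28 at day 9 and 34 and 62 in ESC. The higher value in ESC (log2 fold change 1.26 ± 0.49; edgeR, adjusted p = 0.038) was not called without D9 replicate 1 or ESC replicate 2 (adjusted p = 0.20 and 0.30), nor in DESeq2 (0.17). Part of its transcripts, 37.6% of the 50-base stretches, also occurs in other genes, chiefly the pseudogene Gm11597.

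The basal layer pair was barely read. Krt14, type I, had 47 and 76 reads in MEF, 0 and 0 at day 3, 0 and 9 at day 6, 63 and 89 at day 9 and 30 and 43 in ESC. Day 3 was at least 23.9-fold lower than MEF (edgeR, adjusted p = 9.5e-06), and day 9 against MEF was not called (0.07 ± 0.45). The 9 reads at day 6 came from 1 library, and the call of a rise from day 3 was lost without either D3 library or without D6 replicate 2. Its partner Krt5, type II, never exceeded 0.58 CPM and had 18 and 18 reads at day 9, and its call against day 6 was lost without D6 replicate 2 or D9 replicate 1. The 4 type I genes Krt14, Krt16, Krt17 and Krt42 are neighbours on chromosome 11 with no other keratin between them, and Krt17 and Krt42 are 1.9 kb apart.

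Krt13, the type I keratin of mouth and oesophagus lining, was 1 of the 2 squamous keratins called higher at day 3, the other being Krt6b. It lies on chromosome 11 at 100117327 to 100121566, with 0.22 and 0.15 CPM in MEF, 1.80 and 1.77 at day 3, 1.82 and 2.27 at day 6, 2.54 and 2.70 at day 9, and 1.27 and 0.88 in ESC. Day 3 was higher than MEF by 3.25 ± 0.36 (edgeR, adjusted p = 1.8e-06), and the steps to day 6 (0.19 ± 0.26) and day 9 (0.36 ± 0.25) were not called. The log2 fold change in ESC against day 9 was -1.29 ± 0.26 (edgeR, adjusted p = 0.00056). Its usual type II partner, Krt4, did not pass the filter and reached at most 19 reads in a library.

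Krt10, the type I keratin of the upper epidermis, was read at every stage and was chosen after its values were seen. All its values lay between 1.59 and 3.30 CPM and none of its 5 comparisons was called, with ESC against day 9 the nearest (-0.81 ± 0.19). Krt80, a type II keratin also named after its values were seen, was highest in MEF at 2.99 and 2.71 CPM and lower at day 3 (log2 fold change -2.49 ± 0.47; edgeR, adjusted p = 0.00033). Its further fall at day 6 rested on single libraries and was lost without D3 replicate 1 or D6 replicate 1 (edgeR, adjusted p = 0.34 and 0.32). At day 9 it was at 1.16 and 1.46 CPM, above day 6 by 2.97 ± 0.58 (edgeR, adjusted p = 0.0011). Its lower level at day 9 than in MEF (-1.11 ± 0.43; edgeR, adjusted p = 0.03) was called only with all 4 libraries present, the adjusted p without any of them being 0.058 to 0.14.

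Krt42 was read almost only in the ESC libraries. This type I gene at 100262882 to 100269871 on chromosome 11 had 931 and 1019 reads in ESC, 27.4 and 27.2 CPM, but no more than 7 reads in any other library. ESC was higher than day 9 by a log2 fold change of 7.42 ± 0.23, given without a p-value because the gene passed the filter through ESC alone. The call of a rise from day 6 to day 9 rested on 1 read against 11 and was lost without D6 replicate 1 or D9 replicate 2, and its call against MEF was lost without MEF replicate 2 or D9 replicate 2. In ESC it made up 40.0% and 41.5% of keratin TPM. The salmon estimates placed 71.98% and 79.8% of its ESC reads on a retained-intron transcript, and its protein-coding transcript alone came to 2.47 ± 0.609 TPM (SD, n = 2). Of the 50-base stretches of its protein-coding transcript, only 0.3% occur elsewhere, all in Krt17. The retained-intron transcript, on which most of the ESC reads were placed, was not searched in this way. MEF libraries, with the highest fibroblast marker sums, held 1 and 0 reads of Krt42.

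**Figure D4:**
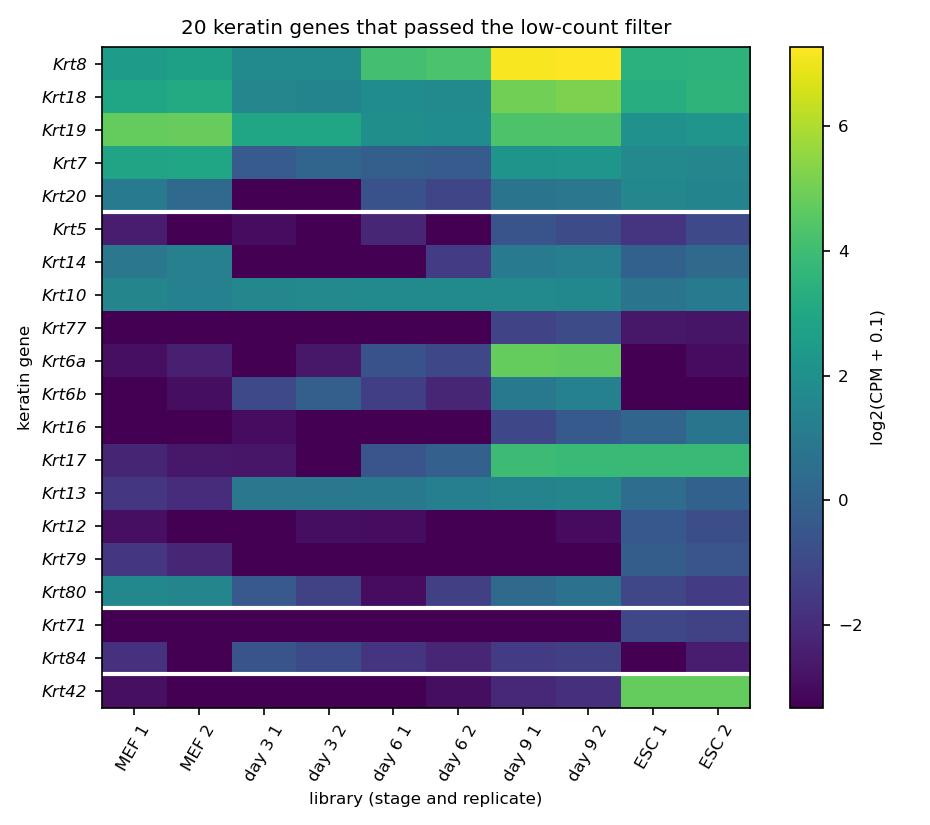
Log2(CPM + 0.1) of the 20 tested keratin genes (rows, white lines separating simple, squamous, hair and unclassed keratins) in the 10 libraries (columns). The 2 libraries of a stage look alike, and the brightest cells are Krt8 at day 9, at 144 and 154 CPM.

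The number of keratins called followed these courses. From MEF to day 3, 3 of the 20 tested members rose and 7 fell, while over all 20165 tested genes 29.1% were called, 14.6% rising and 14.5% falling. The 7 that fell were Krt7, Krt18, Krt19, Krt20, Krt14, Krt79 and Krt80, 4 of them simple keratins, and no simple keratin rose (0 at an unadjusted p under 0.05 in edgeR, and 0 in DESeq2 and limma). Among the 3 that rose, Krt84, which passed the filter only through day 3, lost its call without MEF replicate 2 or D3 replicate 1. From day 3 to day 6, 5 rose and 3 fell, against 9.26% and 10.2% of all genes (19.5% in all). Only 1 of the 3 falls was called without D6 replicate 2, and 2 without any other single library of the comparison. From day 6 to day 9, 14 rose and none fell, against 5.18% and 2.68% of all genes (7.87% in all). The 14 hold Krt6a, in a comparison for which the family was chosen, and Krt5 and Krt77, which passed the filter only through day 9, so nothing is read from that count. No tested keratin fell at an unadjusted p under 0.05 in edgeR, nor was any called lower by DESeq2 or limma. Among the 14 were all 5 tested simple keratins and 8 of the 12 tested squamous ones, and the 6 not called were Krt10, Krt13, Krt12, Krt84, Krt71 and Krt79, the last 2 of which had no read at either stage.

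Between day 9 and ESC, 5 keratins were higher in ESC and 9 lower, against 18.6% and 14.3% of all genes (32.9% in all). Of the 5, Krt42, Krt79, Krt12 and Krt71 passed the filter only through ESC, and the 9 hold Krt6a, in the other comparison for which the family was chosen, and Krt77, which passed only through day 9, so nothing is read from these counts either. Those higher were Krt42 and 4 genes of at most 62 reads in a library (Krt16, Krt79, Krt12 and Krt71), and the calls of Krt84 and Krt77 among the 9 lower ones were lost without single libraries. Day 9 against MEF, a comparison that shares the MEF libraries with the first, had 10 higher and 2 lower, against 24.1% and 19.8% of all genes (43.9% in all). The 10 hold Krt6a, whose day 9 level led to the choice of the family. They also hold Krt5 and Krt77, which passed the filter only through day 9, so nothing is read from this count either. Krt8 and Krt18 were the simple keratins among the 10, and 7 were squamous. The 2 lower were Krt80 and Krt79, and Krt80 lost its call whenever 1 of the 4 libraries was left out. Krt79 rested on 6 and 4 reads in MEF against 0 and 0 at day 9. Those counts put day 9 at least 1.996-fold lower, and Krt79 passed the filter only through ESC.

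The median log2 fold change of the 20 tested keratins was -1.11 from MEF to day 3, 0.085 at day 6, 3.00 at day 9 and -0.94 in ESC, against medians of 0.08, 0.03, 0 and 0.00496 over all genes. Since 7 of the 20 passed the filter through 1 stage, these counts and medians describe the tested members and not the family. Among members with at least 1 TPM at a stage the lowest was Krt7 with 1.78 TPM in MEF, and the highest below it was Krt80 at 0.857 TPM.

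Desmosomes and hemidesmosomes anchor keratin at the membrane. For this list and those that follow, the stages through which genes passed the filter were not examined. Their counts therefore describe the tested genes only. Of 22 desmosome and hemidesmosome genes, 15 were tested, of which 6 rose and 3 fell at day 3 (against 14.6% and 14.5% of all tested genes), 6 rose and none fell at day 6 (9.26% and 10.2%), 8 rose and none fell at day 9 (5.18% and 2.68%), and none was higher and 11 lower in ESC than at day 9 (18.6% and 14.3%). In the 3 directions without a call, 2, 1 and 2 genes were past an unadjusted p of 0.05 in edgeR and 0 were called by DESeq2 or limma. The integrin subunit Itgb4 rose already at day 3, from 3.51 and 3.23 CPM in MEF to 314 and 316 at day 3 (log2 fold change 6.55 ± 0.06; edgeR, adjusted p = 6e-18), and stood at 431 and 457 CPM at day 9. Perp, a desmosomal membrane protein, likewise went from 2.33 and 2.26 to 105 and 105 CPM at day 3 (5.51 ± 0.06; edgeR, adjusted p = 4.3e-17). Desmoplakin (Dsp), which ties keratin to the desmosome, was at 3.10 and 3.48 CPM in MEF, 29.7 and 31.9 at day 3, 47.8 and 41.4 at day 6, 250.3 and 249 at day 9 and 26.0 and 27.2 in ESC. Dsp rose by 3.22 ± 0.10 at day 3 (edgeR, adjusted p = 1.6e-12), the step at which Krt18 fell. At day 9, where Krt8 and Krt18 rose, Dsp rose by 2.48 ± 0.06 (edgeR, adjusted p = 1.2e-12). The desmosomal cadherin Dsg2 had a log2 fold change of -1.64 ± 0.26 at day 3 (edgeR, adjusted p = 5.5e-05). It went from 0.54 and 0.50 CPM at day 3 to 8.82 and 9.83 at day 6. At day 9 Dsg2 rose by 2.52 ± 0.08 (edgeR, adjusted p = 2.5e-11). In ESC the plaque protein Pkp1 and Itgb4 were lower than in the day 9 libraries (log2 fold changes -6.45 ± 0.18 and -4.77 ± 0.05). Plectin (Plec), a linker of several filament types, instead fell at day 3 by 1.68 ± 0.05.

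Other intermediate filament genes, of which 13 of 14 were tested, had 2 higher and 5 lower at day 3, beside 14.6% and 14.5% of all tested genes, and none higher and 5 lower at day 6, beside 9.26% and 10.2% (2 higher at an unadjusted p under 0.05 in edgeR, 0 called by DESeq2 or limma). Vimentin (Vim), the filament of fibroblasts, had 5220 and 5262 CPM in MEF, 3789 and 3770 at day 3, 1415 and 1427 at day 6, 619.6 and 628 at day 9 and 1141 and 1204 in ESC. It fell by 1.41 ± 0.03 at day 6 and by 1.19 ± 0.03 at day 9 on the log2 scale (edgeR, adjusted p = 4.9e-14 and 3.2e-12). At day 9, where 4 rose and 1 fell (5.18% and 2.68% of all genes), the neurofilament gene Nefl rose by 2.41 ± 0.09. In ESC, 7 were higher and 1 lower than at day 9 (18.6% and 14.3% of all genes), the higher ones including Nefh (5.73 ± 0.18) and the muscle filament gene desmin, Des (2.81 ± 0.08). Des had been at 72.4 and 78.9 CPM in MEF, and fibroblast markers were also high in those 2 stages, whose part in this difference was not tested.

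Cornified envelope genes, which build the outer shell of skin cells, had 21 of 38 members tested. At day 3, 7 rose and 8 fell, where 14.6% and 14.5% of all tested genes did. At day 6, 10 rose and 1 fell (9.26% and 10.2% of all genes). At day 9, 8 rose and none fell, against 5.18% and 2.68% (0 also at an unadjusted p under 0.05 in edgeR, and 0 in DESeq2 and limma), and in ESC 4 were higher and 10 lower, against 18.6% and 14.3%. Transglutaminase 1 (Tgm1), which cross-links the shell, went from 13.2 and 11.5 CPM at day 6 to 71.8 and 70.7 at day 9 (log2 fold change 2.53 ± 0.07; edgeR, adjusted p = 8.5e-12). Sfn, an epithelial 14-3-3 protein, rose by 2.27 ± 0.08 at the same step (edgeR, adjusted p = 4.2e-11) and, like Krt17, was not called between day 9 and ESC (-0.03 ± 0.06). Dmkn, a secreted epidermal protein, was at 24.0 and 24.5 CPM at day 9 and 0.18 and 0.27 in ESC, a log2 fold change of -6.74 ± 0.17 (edgeR, adjusted p = 1.8e-13).

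Of 15 epithelial transcription factors, 14 were tested, and none fell before ESC: 7 rose at day 3, 9 at day 6 and 7 at day 9, when 14.6%, 9.26% and 5.18% of all tested genes rose. In ESC 2 were higher and 9 lower than at day 9, against 18.6% and 14.3%. Lower at an unadjusted p under 0.05 in edgeR were 1, 2 and 3 of them at the first 3 steps, with 0 called by DESeq2 or limma. Ehf went from 0.11 and 0.12 CPM in MEF to 107 and 109 at day 3 (9.81 ± 0.10; edgeR, adjusted p = 1.4e-17), and Tfap2c rose by 5.02 ± 0.10 at day 6 (edgeR, adjusted p = 2.6e-14). Grhl2, a regulator of epithelial barrier genes, rose by 1.68 ± 0.07 at day 9. Klf4 was at 330 and 320 CPM in MEF and between 402 and 474 from day 3 to day 9, and was not called until it fell by 1.17 ± 0.03 in ESC. Klf4 is also in the cassette, which was induced from day 3 to day 9 and which ESC lack. Reads of the cassette and of the cells' own Klf4 gene were not separated, so these values are not the course of that gene alone. Trp63, the master factor of stratified epithelium, never exceeded 0.81 CPM. At day 9 the median log2 fold change was 1.11 for desmosome and hemidesmosome genes, 0.37 for other intermediate filament genes, 0.85 for cornified envelope genes and 1.00 for the transcription factors, against 0 over all genes. The adhesion genes Cdh1 and Epcam, general marks of epithelial cells, rose at every step to day 9. Cdh1 rose by 4.62 ± 0.20, 3.05 ± 0.07 and 2.39 ± 0.05 in turn and Epcam by 1.54 ± 0.32, 7.66 ± 0.08 and 1.90 ± 0.03. Cdh1 was not called between day 9 and ESC (-0.22 ± 0.04), the comparison in which Krt8, Krt18 and Krt19 were all lower.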

How the data were processed

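RNA of 10 libraries (5 groups of 2) was analysed. Per the labels, stranded mRNA libraries were read as single reads of 50 nt. Per the submitters' processing notes, Salmon 0.8.2 and the genome build mm10 were used; the transcript index and any filters are not given in the sources used here. The authors deposited, per the file headers, for each of 109617 transcripts the estimated count of reads, not normalized, and the TPM, scaled for effective length.

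Estimated counts were summed to 45706 genes and rounded. Coordinates came from GENCODE M21 (GRCm38), which held all 51 keratins, and promoter windows from RefSeq (GRCm38.p6). The filterByExpr function of edgeR 4.0.16 (R 4.3.3; minimum count 10, minimum total 15) kept 20165 genes, libraries were scaled by TMM, and 1 quasi-likelihood fit took in the 5 group means of all 10 libraries, which share an estimate of spread. Calls needed a Benjamini-Hochberg adjusted p-value under 0.05 over all tested genes and a change of at least 1 in log2 units either way. A standard error is the size of the log2 fold change divided by the root of F.

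The members, classes and gene lists were chosen with earlier results of these data known. Members with a mean of at least 1 TPM at a stage were named with their values, then textbook partners; from each list up to 2 called genes with the largest rise and 2 with the largest fall at 20 CPM or more were eligible, plus Klf4, Cdh1, Epcam, Vim, Trp63, Thy1, Col5a2. Symbols with several gene IDs were taken by the ID with the most reads. Replicates differed by more than sampling noise (chi-square per degree of freedom 2.91 to 5.43), so each library counts as 1 sample. Alternatives were DESeq2 1.42.0, limma 3.58.1 on log2(TPM + 1) and log2(TPM + 0.1), other filters, scalings and fits, near-identical genes summed, other sums, a replicate block, and each library left out. Python 3.11.15 with scipy 1.17.1, matplotlib 3.10.9, pandas 2.3.3 and numpy 2.4.6 was also used. Intervals and limits for 0 reads (3 counts) cover counting error only.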

Additional observations from a re-analysis of the deposited data

How the results depend on the processing

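Over the 20 tested keratins, the 18 alternatives recomputed called fold changes 652 times: 97 of these lost the call, 38 of them in limma on log2(TPM + 1) and 18 in limma on log2(TPM + 0.1), and none changed sign. Among recomputed uncalled fold changes, 7 gained a call and 26 changed sign, among them Krt17 in ESC against day 9 (0.02 in DESeq2) and Krt7 at day 6 (0.12 without D3 replicate 2). The counts of calls from day 6 to day 9 (14 higher, 0 lower) changed to 6 higher with a filter of 10 CPM and to 5 with limma on log2(TPM + 1), with none lower. The 10 CPM filter, which leaves fewer genes tested, gave 0 higher and 3 lower at day 3, 3 and 1 at day 6, 1 and 4 in ESC against day 9, and 5 and 0 at day 9 against MEF. Limma on log2(TPM + 1), which shrinks changes of low genes, gave 0 and 3, 1 and 0, 1 and 5, and 5 and 0 for the same comparisons, and on log2(TPM + 0.1) 3 and 0 at day 6 and 1 lower at day 9 against MEF. At day 6, 3 rose with near-identical genes summed and 1 fell with library-size scaling. At day 9 against MEF, 1 was lower with library-size scaling or with the fit to the 2 groups compared, and 4 without a fold change minimum. Library-size scaling moved the median of all genes to 0.29 for day 3 with MEF, 0.10 for day 6 with day 3 and 0.48 for day 9 with MEF. Leaving out single libraries gave 1 to 2 lower at day 6 and 1 lower at day 9 against MEF. Replicate numbers did not pair the libraries (correlations of deviations from -0.0205 to 0.0222 over 10 pairs, mean 9.9e-05); with a replicate block 1 keratin fell at day 6, Krt80 and Krt6b being lost (adjusted p = 0.064 and 0.052 in edgeR), and no other count moved by more than 1.5 times. The core list gave 1.63 TPM of squamous keratins in MEF. Protein-coding transcripts only (chosen after seeing the data) gave simple sums of 12.4, 3.92, 7.61, 59.2 and 9.92 TPM from MEF to ESC, squamous sums of 2.18, 1.61, 1.88 and 13.6 TPM from MEF to day 9, and ratios of type II to type I of 0.396, 0.350, 1.50, 2.08 and 0.283. That ratio taken on reads was 0.400, 0.370, 1.42, 2.33 and 0.251. Where no construction is named, the cause was not tested. Members under about 10 reads a library are limited by depth.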
